A study of Rattus norvegicus with 9 samples.

Results

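The 10 interstitial matrix genes described here were followed through the earliest tissues of the rat kidney's collecting system. They are Dcn, Lum, Bgn, Ogn and Fmod, which encode small leucine-rich proteoglycans, and Postn, Tnc, Fn1, Eln and Lox, which encode adhesive glycoproteins, the elastic fibre core and an enzyme that cross-links it. The 10 genes were chosen by symbol, and all 15 probe sets with one of these symbols alone were used, out of 31099 probe sets and 14217 named genes on the array. Expression was measured on 9 single-colour arrays of total RNA from Sprague-Dawley embryos at embryonic day 13, 3 arrays for each tissue. The ureteric bud (UB), the branching outgrowth that enters the kidney mesenchyme, was freed from the embryonic kidney by light trypsin treatment, about 100 buds to a pool. The Wolffian duct (WD) from which the bud grows was taken in 2 forms, neither treated with trypsin: still carrying attached mesodermal cells (called WD with mesoderm here), about 50 pieces to a pool, and alone, about 100 ducts to a pool. The UB arrays are the only ones from trypsin-treated tissue, so in each comparison with the UB the effects of digestion and of tissue cannot be told apart. The labels name biological replicates, and each p-value measures the spread between such pools.

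Small leucine-rich proteoglycans are secreted core proteins, most carrying glycosaminoglycan chains, that bind collagen fibrils and control their thickness and spacing. Fibronectin, the product of Fn1, is the adhesive network on which other matrix proteins assemble, periostin and tenascin C are matricellular proteins of embryonic mesenchyme and healing tissue, and lysyl oxidase (Lox) cross-links collagen and elastin. In most organs these genes belong to fibroblast-like cells, while epithelial tubes lay down a basement membrane instead; fibronectin is a common exception, made by many cell types.

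The arrays carried the epithelium their labels name. The summed signal of 11 duct epithelial markers, among them Epcam, Cdh1, Pax2 and Ret, was 221320 to 244038 intensity units on the UB arrays, 74643 to 109811 with mesoderm and 226721 to 245177 on the WD arrays, and none of the 11 lay at or under the 40th percentile of signal throughout a tissue. Single markers differed: 2 rose, among them Ret (2.62 ± 0.20), and 3 fell, among them Krt19 (-4.69 ± 0.16), in UB minus WD in log2(intensity + 46.2). The sum of 11 mesenchymal markers was 9683 to 12303 on the UB arrays and 184939 to 227058 with mesoderm. On the WD arrays it was 75084 to 105295, so the bare ducts also had signal of these markers. Most of that signal came from collagen genes, with a mean of 58705 units for Col3a1 alone. Of the other markers, Twist1, Pdgfra and Pdgfrb were called lower in UB minus WD. Meox1 was called higher (means of 769 and 259 units), Tcf21 (1271 and 821) and Prrx1 (213 and 472) were not called, and Meox2 was not tested. Which cells gave the WD signal was not tested. A technical measure followed part of the division between tissues. The signal of bioC divided by bioB, 2 transcripts spiked into the hybridised material, gave 3.02 to 3.07 for the UB and 3.03 for replicate 3 of WD with mesoderm, where the remaining 5 arrays gave 0.751 to 0.941. Pearson's r between arrays over all 20334 probe sets tested was 0.932 to 0.978 within a tissue and 0.828 to 0.919 between tissues.

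**Figure D1:**
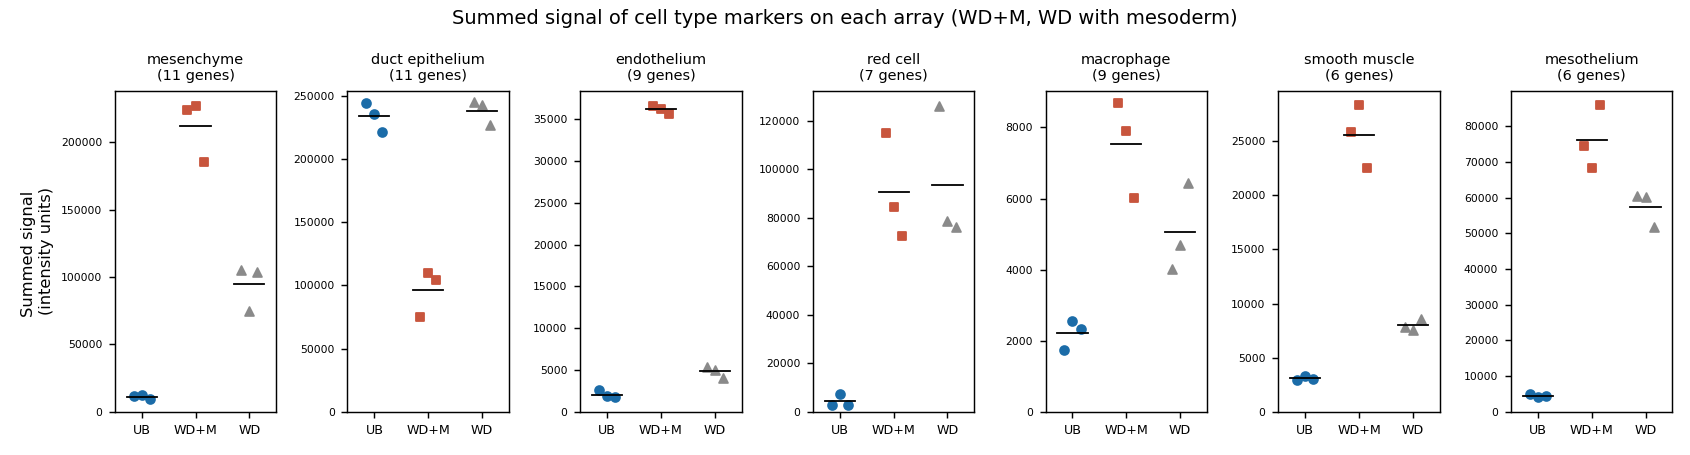
Summed signal, in intensity units from 0, of the brightest probe sets of 7 cell type marker lists on each array (points), with the mean of each tissue (line). The summed duct epithelial markers lay in similar ranges in UB and WD and lowest with mesoderm, while mesenchymal, endothelial and smooth muscle sums were highest with mesoderm and lowest in the UB.

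Dcn and Lum are direct neighbours among protein-coding genes on chromosome 7 of the rat gene table, followed by Kera and Epyc, other genes of the family. Ogn lies on chromosome 17 beside Omd and Aspn, and Fmod on chromosome 13 beside Prelp and Optc. The RefSeq promoter table (GRCr8 build) held 5 of the 10 members: Lum, Ogn, Fmod, Postn and Tnc. By brightest probe sets, Tnc, below the filter, had the largest ratio of mean signal with mesoderm over the bare duct (3.94). Fmod had the smallest among the members tested (1.07), and Ogn had 4 probe sets of which 2 were called. The stretches below are of these 3 genes, the only ones of the 5 with bases to show outside their annotated span. Each is read 5′ to 3′ on the gene's strand and is limited to the part of the 250 bases before the table's start site that lies outside the gene's annotated span; capitals mark TATAAA or its reverse complement.
Fmod, chr13:48045317-48045566, plus strand: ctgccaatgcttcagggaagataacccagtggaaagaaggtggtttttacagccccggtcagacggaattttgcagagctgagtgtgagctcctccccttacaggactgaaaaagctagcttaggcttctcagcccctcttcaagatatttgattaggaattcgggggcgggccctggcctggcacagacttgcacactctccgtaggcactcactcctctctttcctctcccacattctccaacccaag
Ogn, chr17:15259168-15259245, minus strand: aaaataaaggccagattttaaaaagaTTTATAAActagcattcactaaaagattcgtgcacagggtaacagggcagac
Tnc, chr5:82476198-82476381, minus strand: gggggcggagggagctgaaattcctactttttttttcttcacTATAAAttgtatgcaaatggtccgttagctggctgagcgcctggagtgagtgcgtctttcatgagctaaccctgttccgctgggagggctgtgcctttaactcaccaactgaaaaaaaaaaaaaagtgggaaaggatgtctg
Searched on both strands of the full windows of 250 bases, TATAAA matched in Postn (44 to 39 bases before the start), Tnc (208 to 203) and Ogn (222 to 217, overlapped by a match on the opposite strand), and in 12.9% of all 33469 windows of that length. CATTCC, the letters bound by TEAD factors, matched in Ogn alone of the 5 and in 12.1% of all windows, and CAGCTG, an E-box, in Postn alone and in 12.0%. Neither motif overlapped TATAAA in these windows, and Lum and Fmod held none of the 3. The whole Postn window, with its matches, lay inside the gene's own annotated span. The CATTCC match in Ogn (84 to 79) also lay inside that gene's span, so only the TATAAA matches in Tnc and Ogn lay outside.

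The UB had far less signal for most members than the bare duct from which it grows. Dcn, Lum, Bgn and Postn fell to between 2.59% and 16.9% of their WD mean and Fn1 to 57.8%. The lowest UB values of Dcn, Lum and Postn lay at percentiles 40.7, 41.9 and 40.5 of an array. That is just over the filter level, the 40th percentile, so the ratios of these genes are uncertain. Ogn, Lox and Fmod fell too but with all or most UB signals too near background for an exact ratio, and Tnc and Eln were too weak on most arrays to be tested. Dcn, whose product decorin binds collagen I fibrils, had 356, 350 and 343 intensity units on the UB arrays, against 15634, 11452 and 13388 on the WD arrays. The groups were far apart and the UB values nearly identical, and the difference in log2(intensity + 46.2) was -5.08 ± 0.21 (SE, adjusted p = 2.36e-08, limma), the ninth smallest p of the array. Fmod, encoding fibromodulin, which acts on collagen fibril growth, had 160, 112 and 335 units in the UB and 3761, 3930 and 4232 in the WD. Its difference was -4.11 ± 0.29 (adjusted p = 1.21e-06, limma). The values of UB replicates 1 and 2 lay under the 40th percentiles of those arrays (270 and 295 units), so that size is not exact.

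Ogn encodes osteoglycin, also called mimecan. Its brightest probe set had 68.1, 9.51 and 131 units in the UB, against 1897, 1592 and 1142 in the WD, a difference of -3.90 ± 0.39 (adjusted p = 2.46e-05, limma). The UB values are near or under the 10th percentile of all values, 46.2 units, so the size of the difference depends on the pseudocount: it was -4.49 with the smaller and -3.10 with the larger pseudocount tried. The other 3 Ogn probe sets were lower as well, by -2.06 ± 0.52 to -2.40 ± 0.50. Lum, encoding lumican, had 404, 342 and 371 units in the UB and 4975, 4141 and 3317 in the WD, a difference of -3.31 ± 0.21 (adjusted p = 7.37e-07, limma). Bgn, whose product biglycan is the closest relative of decorin, had 527, 605 and 843 units in the UB, against 5235, 3421 and 3008 in the WD. Its difference of -2.47 ± 0.23 (adjusted p = 1.53e-05, limma) was the smallest of the 5 proteoglycans, although the groups again did not overlap.

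Among the adhesive and cross-linking members, Postn had 435, 576 and 337 units in the UB and 7824, 7140 and 5434 in the WD, a difference of -3.80 ± 0.20 (adjusted p = 1.27e-07, limma). Lox had 43.2, 107 and 47.5 units in the UB, against 665, 774 and 743 in the WD, a difference of -2.83 ± 0.34 (adjusted p = 1.09e-04, limma), and its other probe set gave -2.42 ± 0.48. Both genes were thus low in every bud pool. Fn1 kept a strong signal in the bud.

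Fn1 had 8105, 10673 and 7787 units in the UB and 17718, 15279 and 12930 in the WD, never below percentile 89.0 of an array. The groups did not overlap and the difference was -0.79 ± 0.16 (adjusted p = 0.00399, limma). That call was lost under 3 alternatives: with each array centred on its median the difference was -0.33 ± 0.21 (adjusted p = 0.236), with the spike ratio as a term -0.54 ± 0.29 (adjusted p = 0.359) and with the 3′ over 5′ probe signal for beta-actin as covariate (1.48 to 2.30 in the UB, 2.19 to 4.87 in the WD) -0.54 ± 0.21 (adjusted p = 0.0942). The spike ratio entered that fit as a class, above 2 or not. All UB arrays were above and all WD arrays below, so its effect came from replicate 3 of WD with mesoderm set against replicates 1 and 2. Over all probe sets tested the median difference was -0.12, and with median centring it was 0.34.

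Across the members, 8 of the 10 passed the filter on weak signals and all 8 were called lower in the UB, where 19.6% of the 10802 genes tested were called lower. On single probe sets the count was 12 of the 12 tested, where 18.6% of all tested were called lower, and the arrays of the 2 tissues did not overlap, the UB lower, for 8 of the 10 genes, as for 29.5% of probe sets tested. Their median difference was -3.55 and that of all genes tested -0.08. Ogn and Lox passed the filter only through arrays of WD and WD with mesoderm, so this count describes these genes and carries no weight as a test of the group. In bulk tissue, fewer cells of a type and less RNA per cell cannot be told apart. The sums of other cell type markers were lower in the UB too, though not every gene in them. Of the genes tested, 7 of 10 mesenchymal, 6 of 6 mesothelial and 5 of 6 red cell markers were called lower (background 19.6%). So were 5 of 9 endothelial, 4 of 5 smooth muscle and 5 of 7 macrophage markers. The mesenchymal marker Meox1 alone was called higher (1.79 ± 0.54, adjusted p = 0.0278, limma). The summed mesenchymal markers were at 9683 to 12303 units in the UB against 75084 to 105295 in the WD, with 3 of 11 genes at or under the 40th percentile on every UB array. For 6 mesothelial markers, 1 of them shared with the duct list, the sums were 4169 to 4971 against 51742 to 60432 (2 of 6 genes so low), and for 7 red cell markers 2871 to 7396 against 76065 to 126106 (5 of 7). For 9 endothelial markers they were 1724 to 2609 against 4059 to 5417 (5 of 9), for 6 smooth muscle markers 2973 to 3337 against 7535 to 8608 (2 of 6), and for 9 macrophage markers 1738 to 2556 against 4032 to 6448 (6 of 9). Their part in the result was not tested.

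**Figure D2:**
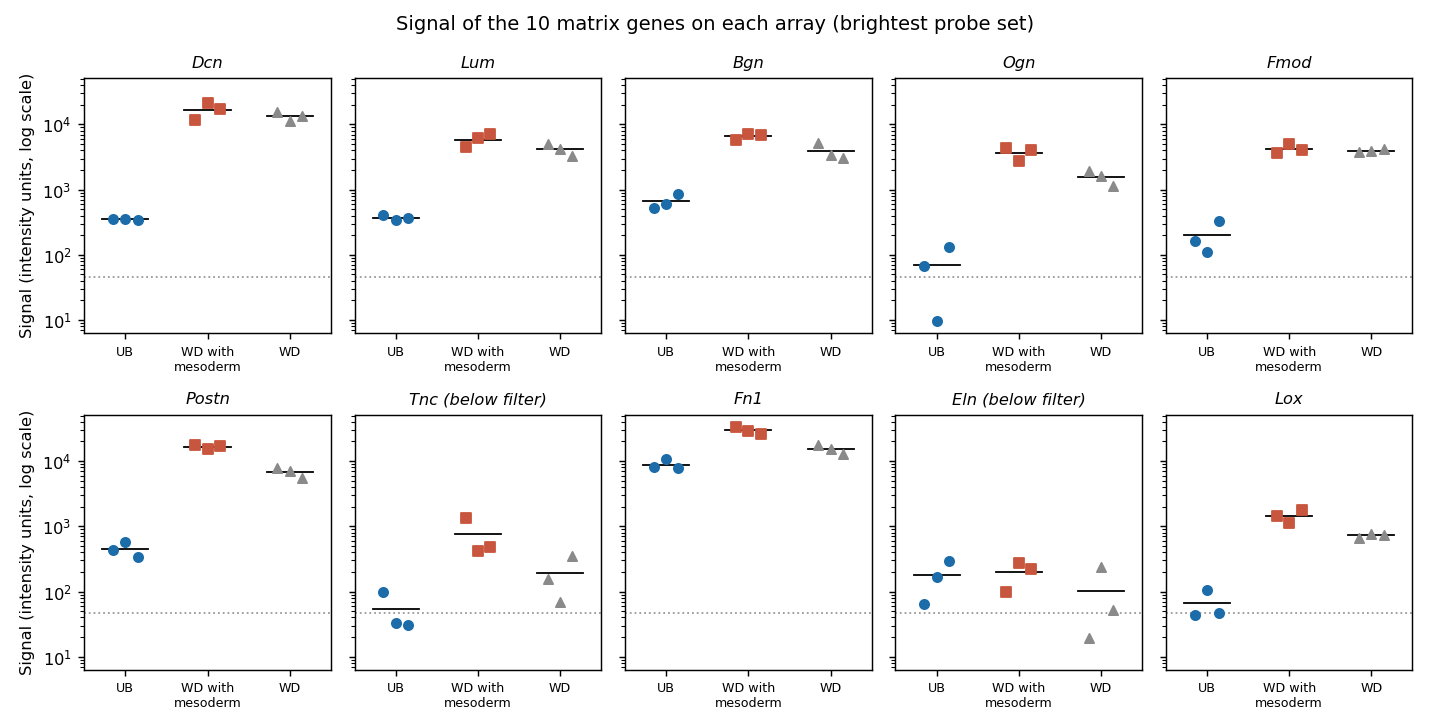
Signal of the brightest probe set of each of the 10 genes on each array (points; log scale, intensity units), with tissue means (lines) and the pseudocount of 46.2 units (dotted). UB points lie below both other tissues for 8 genes; Tnc and Eln were below the filter, and Eln overlaps in all tissues.

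Compared with the duct in its mesoderm, the UB was lower again in every member tested. Dcn had the 356, 350 and 343 units given above in the UB, against 11676, 21390 and 17533 with mesoderm, a difference of -5.37 ± 0.21 for UB minus WD with mesoderm (adjusted p = 5.40e-09, limma). Ogn, with 4375, 2762 and 3984 units with mesoderm, differed by -5.15 ± 0.39 (adjusted p = 1.18e-06, limma). With its UB signals near background that size is not exact, and it ran from -5.75 to -4.30 over the alternatives. Postn, with 17888, 15070 and 17086 units there, differed by -5.10 ± 0.20 (adjusted p = 5.66e-09, limma). These values and those against the WD share the UB arrays and are not independent.

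The other members ran from -4.20 ± 0.29 for Fmod to -1.75 ± 0.16 for Fn1, which had 33693, 29077 and 26410 units with mesoderm (adjusted p = 6.18e-06, limma). The size for Fmod is again not exact. All 8 were called lower, where 16.6% of genes tested were, as were all 12 probe sets tested, against 14.5% of all. Ogn and Lox passed the filter only through arrays of WD and WD with mesoderm, and a weaker probe set of each only through those with mesoderm. These counts therefore describe the genes and carry no weight as a test of the group. The arrays did not overlap for 9 genes, Tnc included, as for 22.6% of probe sets tested. For each of the 8, this lack of overlap takes in WD with mesoderm replicate 3, the one array with the high spike ratio of the UB. It is the same result and no separate test of that ratio.

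Tnc, which encodes tenascin C, had 98.1, 32.6 and 30.8 units in the UB, 1354, 423 and 481 with mesoderm and 158, 69.5 and 345 in the WD. All 3 arrays with mesoderm lay above all others, but only 2 of the 9 arrays passed the filter level, where 3 were needed. When every probe set was tested without the filter, Tnc differed by -2.88 ± 0.58 between UB and WD with mesoderm (adjusted p = 0.0036, limma), by 1.74 ± 0.58 between WD with mesoderm and WD (adjusted p = 0.0957) and by -1.13 ± 0.58 between UB and WD (adjusted p = 0.187). Eln, which encodes the elastin precursor, had 63.4, 168 and 298 units in the UB, 98.6, 278 and 225 with mesoderm and 19.4, 238 and 51.4 in the WD on its brighter probe set. The 3 tissues overlapped, no array passed the filter level on either of its 2 probe sets, and without the filter no comparison of Eln was called (adjusted p = 0.425 to 0.87, limma).

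The comparison of WD with mesoderm and WD alone shows how the mixture of RNA differs, and does not isolate what the attached cells add. On arrays scaled to a common mean, summed duct epithelial markers stood at 0.404 times the WD with mesoderm. The bare duct also had signal of mesenchymal and mesothelial markers. Here the members split. Postn, Fn1 and Bgn rose with mesoderm, while Fmod, Dcn and Lum were not called, and Ogn and Lox were higher on all arrays with mesoderm without passing the test. Among the brightest probe sets tested, Postn had the largest difference, with the 17888, 15070 and 17086 units given above against 7824, 7140 and 5434 in the WD, or 2.45 times the mean (1.30 ± 0.20, adjusted p = 0.00121, limma). Fn1 had 1.94 times the WD mean (0.96 ± 0.16, adjusted p = 0.00219, limma), and both calls held in all 24 alternatives.

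Bgn had 5751, 7227 and 6931 units with mesoderm and 5235, 3421 and 3008 in the WD (0.80 ± 0.23, adjusted p = 0.0429, limma). The groups did not overlap, but this call was lost in 13 of 24 alternatives, at adjusted p up to 0.131, among them the fits that left out WD with mesoderm replicate 2 (0.128) or 3 (0.112), WD replicate 2 (0.131) or 3 (0.116), and UB replicate 1 (0.0508) or 2 (0.0553). With the replicate number as a block it stood at 0.078.

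Ogn was higher with mesoderm on all 4 of its probe sets, without overlap: the brightest differed by 1.24 ± 0.39 (adjusted p = 0.0589, limma), and 2 others were called, at 2.00 ± 0.50 (adjusted p = 0.0215) and 1.99 ± 0.52 (adjusted p = 0.025). The mean of its 4 probe sets gave 1.65 ± 0.40 (adjusted p = 0.0167), and the brightest alone was called in 8 of 24 alternatives (adjusted p = 0.0103 to 0.37 over all), among them those without UB replicate 2 (0.0175) or 3 (0.0282). Lox had 1425, 1137 and 1803 units with mesoderm, against 665, 774 and 743 in the WD, again with no overlap, and its difference of 0.93 ± 0.34 did not pass (adjusted p = 0.0985, limma).

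Dcn differed by 0.29 ± 0.21 (95% interval -0.16 to 0.74, adjusted p = 0.394, limma), and its WD values lay within the range of those with mesoderm on 2 of 3 arrays. Lum had 4440, 6089 and 7046 units with mesoderm and a difference of 0.49 ± 0.21 (95% interval 0.02 to 0.96, adjusted p = 0.162). Fmod, at 3616, 5075 and 4118 units with mesoderm, differed by 0.09 ± 0.29 (95% interval -0.53 to 0.71, adjusted p = 0.872). The interval of Fmod ends below that of Postn (0.86 to 1.74), and the difference between the 2 genes was not tested.

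Of the 8 members tested, 3 were called higher with mesoderm, where 6.47% of genes tested were called higher and 8.24% lower. Of their 12 probe sets tested 5 were called higher, against 5.62% of all, and the groups of brightest probe sets were apart, higher, for 6 of all 10 members, against 13.5% of probe sets tested. An Ogn probe set among those called (1.99 ± 0.52) and the weaker Lox probe set passed the filter only through the arrays with mesoderm. The probe set count therefore describes these genes and carries no weight as a test of the group. The summed mesenchymal markers were 2.24 times as high with mesoderm as in the WD, the mesothelial markers 1.33 times, endothelial markers 7.47 times, smooth muscle markers 3.19 times and macrophage markers 1.49 times, while red cell markers stood at 0.967 and duct epithelial markers at 0.404 times. The mesothelial genes split: Wt1 was called higher (1.15 ± 0.22), Msln was called lower (-2.07 ± 0.23) and 4 were not called. Of 7 macrophage genes tested, 0 were called. The part of these cell types in the members' differences was not tested. Among the 5 arrays of low spike ratio, 2 with mesoderm and 3 of WD, Postn (1.28 ± 0.21, adjusted p = 0.00546, limma), Fn1 (1.04 ± 0.18, adjusted p = 0.00853) and Ogn (1.18 ± 0.30, adjusted p = 0.043) were called, and Bgn was not (0.76 ± 0.26, adjusted p = 0.118).

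**Figure D3:**
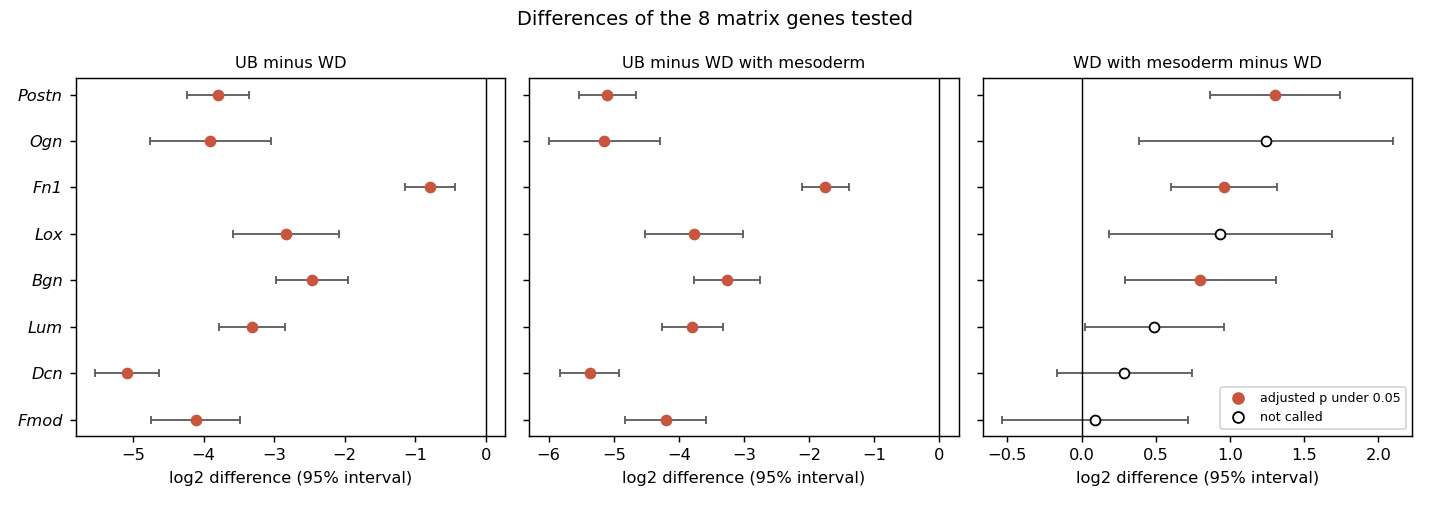
Difference in log2(intensity + 46.2) of each of the 8 genes tested (points) with its 95% interval (bars) in the 3 comparisons; filled points were called at an adjusted p under 0.05 and open points were not. All 8 are lower in the UB, Fn1 least, while with mesoderm the genes spread from 0.09 (Fmod) to 1.30 (Postn).

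The genes most like each member were found by the root mean square distance between centred log2 profiles over the 9 arrays, among 10722 named genes. Postn lay nearest to Col5a2, a chain of collagen V (0.19 log2 units), Itga8, an integrin subunit (0.26), and Alx1 (0.29). Dcn lay nearest to Ldb2 (0.28), Krt19, a keratin of duct and mesothelium (0.32), and Dlk1 (0.33), and Fmod to Jph3 (0.33), Myrf (0.34) and again Krt19 (0.37). For Bgn they were Ltbp4 (0.21), Zeb1 and Tmem108, for Lum Sspn (0.24), Tmem132c and Cdh2, for Ogn Mfap4 (0.36), Hoxa9 and Ddr2, and for Lox Timp3 (0.22), Tmem119 and Cyp2s1.

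No member was among the 3 nearest genes of another. Lum was the nearest member to Bgn (0.41), Lox (0.41) and Fmod (0.50), and Dcn's nearest member, Fmod, at 0.62, was its 26th nearest gene although Lum is its chromosomal neighbour. Fn1 stood apart, nearest to Pla2g4a, Il1r1 and Me1 (0.13 to 0.15), with its nearest member, Bgn, at 0.81. These distances are a description over 9 arrays that share tissue and scaling.

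Other matrix genes were counted by list, and for each count the share of all genes tested is the background: 19.6% were called lower and 13.3% higher in UB against WD, and 6.47% higher and 8.24% lower with mesoderm against WD. Of 18 genes tested of 20 measured that build or cross-link elastic fibres or bind TGF-beta in the matrix, 13 fell and 2 rose in the UB against the WD (median -1.43, against -0.08 for all genes tested), and 11 rose with mesoderm against WD (median 0.75, against -0.01). Mfap4, a microfibril-associated protein, fell by 3.97 on the log2 scale in the UB, with 378 ± 195 units in the UB, 11533 ± 2113 with mesoderm and 6222 ± 775 in the WD (SD, n = 3 each). Efemp1, encoding fibulin 3, had 308 ± 88.9 units in the UB, 8793 ± 1920 with mesoderm and 2311 ± 286 in the WD (mean and SD of 3 arrays), a rise of 1.89 ± 0.23 with mesoderm against WD (adjusted p = 2.68e-04, limma). Emilin1 rose with mesoderm by 1.71 ± 0.18, and the latent TGF-beta binding proteins Ltbp1 and Ltbp4 by 0.85 ± 0.18 and 0.91 ± 0.23.

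Of the relatives of Lox measured, Loxl1 was 1.39 ± 0.26 and Loxl2 0.61 ± 0.15 higher with mesoderm than in the WD, and Loxl3 differed by -0.05 ± 0.29 (adjusted p = 0.926, limma). The 2 genes of this list that rose in the UB were Fbn2, the fibrillin of embryonic microfibrils (8686 ± 1520 units in the UB and 3506 ± 600 in the WD, 1.30 ± 0.27), and Fbln2, encoding fibulin 2 (7245 ± 596 and 3901 ± 560, 0.89 ± 0.17; SD, n = 3 each). Eln itself was above the filter level on no array.

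Of 12 matricellular genes tested of 16 measured, 8 fell (background 19.6%) and 3 rose (13.3%) in the UB against the WD (median -1.42), and 4 rose (6.47%) with mesoderm against WD (median 0.36). Tgfbi, a TGF-beta induced adhesion protein, had 2860 ± 505 units in the UB, 53943 ± 3883 with mesoderm and 28443 ± 4621 in the WD (SD, n = 3 each). It fell by 3.30 in the UB and Smoc2 fell by 3.62 there on the log2 scale, against the WD. Sparc, a collagen-binding protein, fell by 1.44 in the UB and differed by 0.34 ± 0.16 with mesoderm (adjusted p = 0.203, limma). Ccn2 was lower in the UB (-1.51 ± 0.21) and higher with mesoderm (1.28 ± 0.21), whereas Ccn1 (2.08 ± 0.25), Ccn3 (1.45 ± 0.32) and Matn2 (1.17 ± 0.40) were the 3 that rose in the UB.

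Large proteoglycans and their partners were fewer. Of 6 genes tested of 10 measured, 2 fell in the UB against the WD (background 19.6%), Vcan (versican, -1.61 ± 0.26) and its hyaluronan link protein Hapln1 (-1.21 ± 0.27), and Vcan alone rose with mesoderm (background 6.47%; 1.20 ± 0.26, adjusted p = 0.00936, limma). Srgn was lower in the UB than with mesoderm (-1.81 ± 0.40) and was not called in the other comparisons. The median difference was -0.69 in the UB and 0.60 with mesoderm, both against the WD.

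Most other small proteoglycan genes gave too little signal: of 9 measured, 2 were tested. Podn, encoding podocan, had 1004 ± 116 units in the UB, 732 ± 85 with mesoderm and 2589 ± 311 in the WD (mean and SD of 3 arrays). Podn was thus lower in both against the bare duct (-1.33 ± 0.20, adjusted p = 6.06e-04, and -1.76 ± 0.20, adjusted p = 2.11e-04, limma). No member had that pattern. Tsku was not called in any comparison, and Omd and Aspn, the neighbours of Ogn, and Prelp and Optc, the neighbours of Fmod, were below the filter.

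Of 11 enzymes of chondroitin and dermatan sulfate chains tested of 16 measured, 2 rose (Chsy1 and B3galt6; background 13.3%) and 3 fell (Chst14, Csgalnact2 and Dsel; background 19.6%) in the UB against the WD, counts near those shares, with a median of -0.48 against -0.08 for all genes tested. With mesoderm against WD the smallest adjusted p among them was 0.052, for Chst14 (limma). Chst14, which sulfates dermatan sulfate, had 2177 ± 96.6 units in the UB, 4850 ± 784 with mesoderm and 3336 ± 272 in the WD (SD, n = 3 each), a difference of -0.60 ± 0.16 for UB minus WD. Chsy1, a chondroitin polymerase, rose in the UB by 0.62 ± 0.14, to 19084 ± 887 units against 12453 ± 1446 (SD, n = 3 each).

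Of 8 matrix receptor genes tested of 10 measured, 3 fell in the UB against the WD (Ddr2, Itga8 and Sdc4; background 19.6%). With mesoderm against WD 3 rose (Itga8, Ddr2 and Itga9; background 6.47%) and 1 fell (Sdc4; background 8.24%). Itga8, whose integrin binds fibronectin and nephronectin, had 314 ± 47.0 units in the UB, 12744 ± 1227 with mesoderm and 3724 ± 548 in the WD (SD, n = 3 each). Ddr2, a collagen receptor kinase, fell by 3.60 in the UB and rose by 1.03 ± 0.18 with mesoderm. Itgb1, the shared integrin beta chain, differed by -0.09 ± 0.17 in the UB (adjusted p = 0.708, limma).

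Of 5 TGF-beta genes tested, 3 fell in the UB against the WD (background 19.6%), Tgfb1 (-2.34 ± 0.43), Tgfb2 (-2.21 ± 0.55) and Tgfb3 (-2.30 ± 0.33), and Tgfb1 alone rose with mesoderm, to 1520 ± 369 units against 260 ± 80.8 in the WD (SD, n = 3 each, 2.35 ± 0.43, adjusted p = 0.00359, limma). In the UB Tgfb1 was at 13.3 ± 3.81 units (SD, n = 3), below the pseudocount, which therefore sets the size of that difference. TGF-beta is bound by decorin, biglycan and fibromodulin and is a known inducer of Postn, Fn1 and Lox. Its receptor Tgfbr1 differed by -0.14 ± 0.16 in the UB (adjusted p = 0.531, limma).

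**Figure D4:**
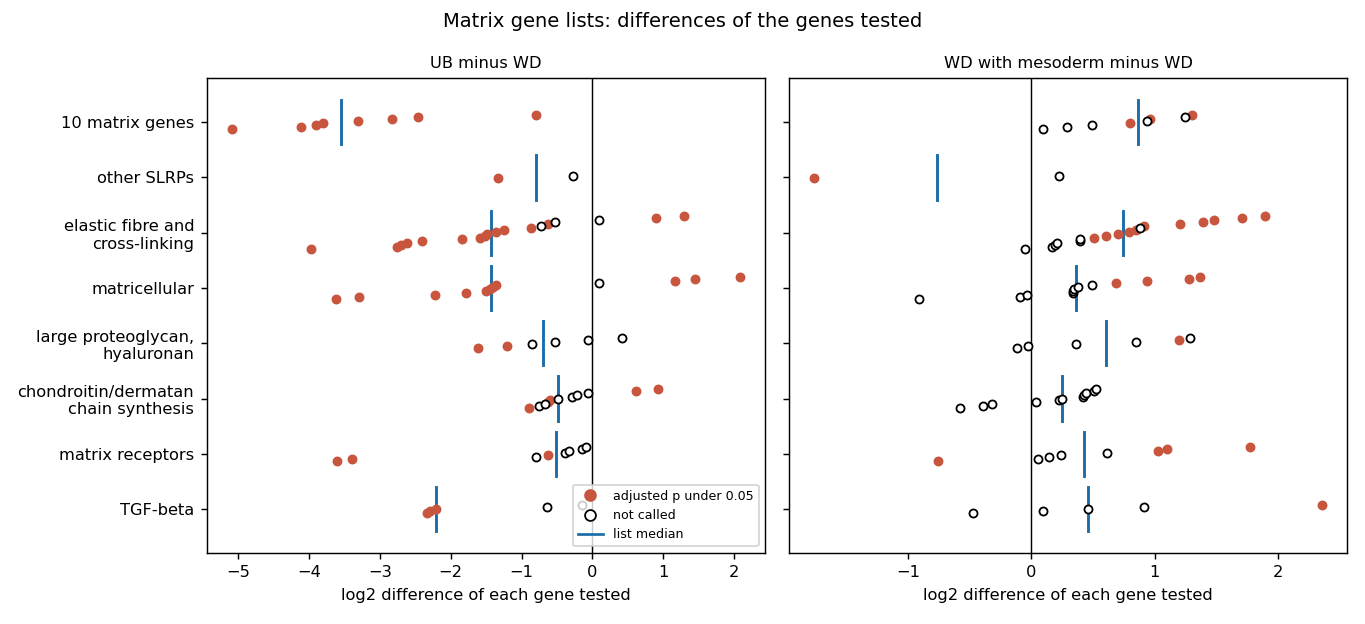
Difference in log2(intensity + 46.2) of every gene tested in the 10 matrix genes and 7 related lists (points; filled, called at an adjusted p under 0.05), with list medians (lines). The members lie furthest to the left in UB minus WD, with a median of -3.55, and all lists but the other small leucine-rich proteoglycans (SLRPs) have medians above 0 with mesoderm.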

How the data were processed

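The deposited table holds one intensity per probe set and array on a linear scale, made by the authors with GCOS, Affymetrix software, per the submitters' processing notes; the sources used here give neither version nor summary algorithm. The values show a mean of 2501 units on every array without the outer 2% at each end, so the authors had scaled them, and no detection calls were used. Of 31099 probe sets, 57 were controls, 20826 had 1 gene symbol (20758 matched to GRCr8 by Entrez ID), 436 several and 9780 none. The brightest probe set stood for a gene. Values were tested as log2(intensity + 46.2), which understates changes of weak genes, with limma 3.58.1 in R 4.3.3 (group as the only term, 6 residual and 6.09 prior degrees of freedom, variance trend). A probe set was tested if its signal exceeded the 40th percentile of the array on at least 3 of 9. P-values were adjusted by Benjamini-Hochberg over all 20334 probe sets and called under 0.05. From each matrix list the 5 called genes of smallest p could be named, and every called gene of a list with 5 or fewer; Loxl1, Loxl2, Loxl3, Fbn2, Fbln2, Ccn1, Ccn3, Matn2, B3galt6, Itgb1, Tgfbr1 and Tsku were named after their values were seen. The procedure was tested on simulated data. The members and lists were chosen with earlier results of these data known.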

Additional observations from a re-analysis of the deposited data

How the results depend on the processing

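Between UB and WD, 7 to 8 members were called lower in all 23 alternatives, Fn1 being lost with median centring, the spike ratio term and the beta-actin covariate, and Lox failing the 60th percentile filter. Between UB and WD with mesoderm 7 to 9 were called, and between WD with mesoderm and WD 2 to 4. No called member changed sign: of 565 values of single members under alternatives, 538 kept their call, 16 lost it and 9 gained one, and Fmod, not called with mesoderm, ran from -0.34 to 0.20. Probe sets called between UB and WD numbered 6073 (2297 higher, 3776 lower), 798 with the spike ratio term and 3276 with the beta-actin covariate, and 3743 to 6488 with 1 array left out, fewest without UB replicate 1. Median centring gave 5835 higher and 1530 lower, and quantile normalization 2527 and 2433. Between UB and WD with mesoderm, 5177 (2228 higher, 2949 lower) became 2414 with the spike ratio term and 2992 within the high spike ratio class, which holds 1 array with mesoderm and so takes its spread from the UB arrays; median centring gave 4610 higher and 1793 lower. Between WD with mesoderm and WD, 2578 (1142 higher, 1436 lower) became 1444 within the low spike ratio class and 826 with the beta-actin covariate; median centring gave 1242 higher and 923 lower. The causes were not tested. With the replicate number as a block, 8, 8 and 2 members were called. Deviations of same-numbered arrays had r of -0.35 to 0.28, above 0.1 in 1 of 9 pairs, and those of other pairs -0.26 to 0.30. The numbers thus showed no consistent pairing, but so few values, centred within groups of 3, cannot exclude it. UB and WD share no spike ratio class, so no value within a class could be had for them. Without detection calls, signals under the filter level cannot be told from background, as for Ogn, Lox and most Fmod values in the UB and for Tnc on most arrays and Eln on all.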
